A study of Hormonema carpetanum with 4 samples.

Results

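Mycelium of the mutant strain ENF-5-29 of Hormonema carpetanum at day 18 of fermentation at 19 °C was compared with the same mutant at day 14. Hormonema carpetanum is a dark-pigmented filamentous fungus. Its product enfumafungin is a glycoside of a triterpene and blocks the enzyme that builds beta-glucan in fungal cell walls. The series holds 4 RNA-seq libraries, 1 in each group, and 2 of them carry this comparison. The other 2, the mutant at day 18 at 25 °C and the wild-type strain ATCC74360 at day 14, are given as values beside them. The mutant came out of a mutagenesis programme per the series' title, and its mutations are not given in the labels. RNA was extracted from fermentation broth, and the labelled tissue is mycelium in all 4 groups. The labels state no temperature for day 14. The sample titles name day 14 and day 18, whereas the extraction protocol names 18 days for both strains, and the titles were followed here. Age of the culture and temperature therefore cannot be told apart in the comparison. With 1 library on each side no difference below has a replicate check, and none was tested.

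Genes entered the comparison when either library had 1 TPM or more. TPM is a gene's read count divided by its length and expressed as a share of 1000000 for the library, so levels can be set side by side between genes. Of the 10951 genes in the table, 9119 were compared. The ratio used is the difference of log2(TPM + 1), 19 °C day 18 minus day 14, which understates the change of low genes, and a gene is called higher or lower from a 2-fold ratio on that scale. A fold given next to TPM values is their plain quotient. Where values carry no library name, a pair is day 14 and then 19 °C, and a set of 4 is wild type, day 14, 19 °C and 25 °C. Gene names are those of the best database hit, and a hit is no proof of the same function. A gene is named by the rule given with the processing, and list members named beyond the highest and the lowest ratio of their list were chosen after their values were seen. The level of RNA of a whole mycelium is measured, so fewer cells of a kind and less RNA per cell cannot be told apart.

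Fungi take up iron in a pair of ways. Under iron shortage they secrete siderophores, small peptides built on hydroxylated ornithine that bind ferric iron and are brought back in by dedicated transporters, and they also reduce iron at the surface and carry it in through an oxidase and permease pair. In Aspergillus the bZIP factor HapX is active when iron is short, and the GATA factor SreA represses siderophore genes when iron is plentiful. Terpenes such as enfumafungin and ergosterol draw on the mevalonate pathway, and the genes of fungal terpene products often lie next to each other. In a fermentation that ages, fungi also shift among sugars, polyols such as mannitol, nitrogen sources and respiratory routes.

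Several iron uptake genes had ratios among the lowest at 19 °C, and a nitric oxide-detoxifying enzyme had one among the highest. At day 18 at 19 °C the siderophore transporter mirB (gene04089) stood 124-fold below its day 14 level, and that enzyme, flavohemoprotein (gene03962), 43.9-fold above it. A stretch of genes with diterpene synthesis hits and a stretch with a tyrosinase hit had their highest summed level in this library among the 4. The enfumafungin genes held a smaller share of the library than at day 14, with 1 transporter model called higher. Ribosome assembly genes were the list with the highest median, and transfer RNA ligases the list with the lowest.

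More genes were below their day 14 share than above it. Of the compared genes, 727 were higher (7.97%), 2545 were lower (27.9%) and 5847 lay within 2-fold. The median log2 ratio was -0.55, and the quartiles were -1.06 and 0.09. The shift depended on the level of the gene. Genes with a geometric mean of 3 to 10 TPM over the 2 libraries had a median log2 ratio of -0.75, those of 300 to 1000 TPM one of 0.01, and the 164 genes above 1000 TPM one of 0.13. Those 164 genes held 40.2% of the day 14 library and 44.2% of the 19 °C library. When the 19 °C values were divided by the median ratio of the 8392 genes at 1 TPM or more in both libraries, 0.675, the split turned to 1466 higher (16.1%) and 1041 lower (11.4%), with a median of -0.04. Many calls thus depend on the scale, so the counts and median after this rescaling are given beside the lists described at length. List counts as deposited are to be read against the 7.97% higher and 27.9% lower of all genes, and rescaled counts against 16.1% and 11.4%. Against the same day 14 library, the 25 °C library had 1303 higher (14.1%) and 2249 lower genes (24.4%), with a median of -0.30. Both day 18 comparisons share that day 14 library, so their values are set side by side only.

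**Figure D1:**
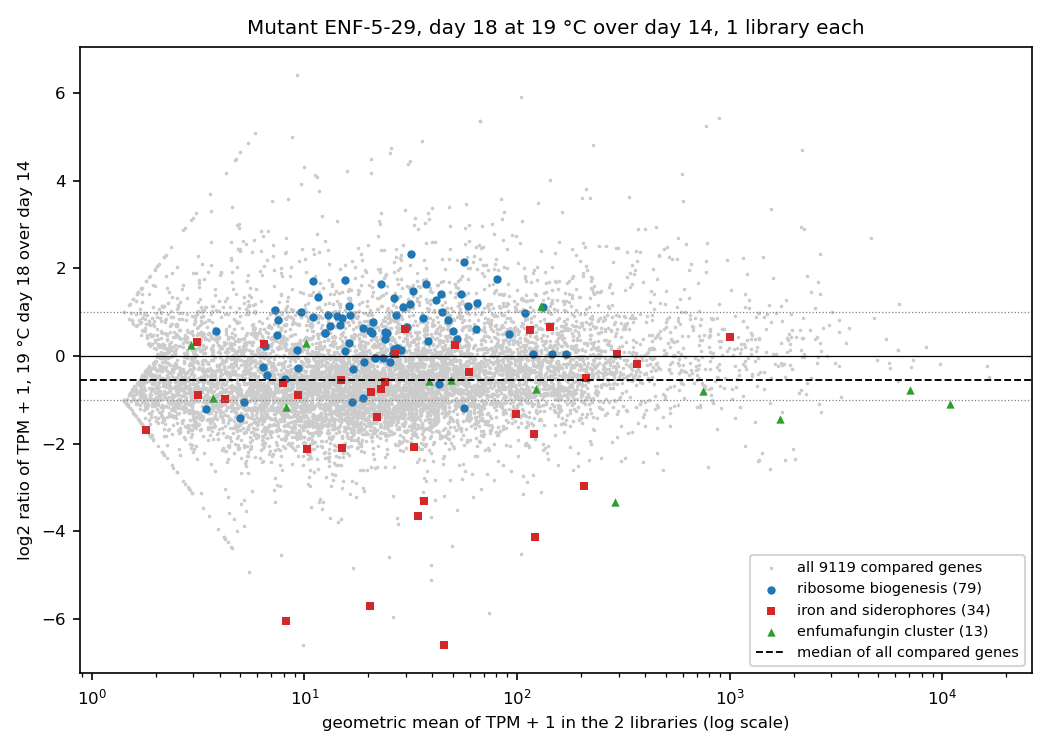
Log2 ratio of TPM + 1 (19 °C day 18 over day 14) against the geometric mean of TPM + 1 in the 2 libraries, with 1 point for each of 9119 genes. The dashed line is the median of all genes, -0.55, and the dotted lines mark 2-fold. Iron and siderophore genes (squares) reach -6.60, ribosome biogenesis genes (circles) lie mostly above 0, and the enfumafungin genes (triangles) run from -3.34 to 1.15.

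Most genes for siderophores and the pair for reductive iron uptake were lower, and those for zinc and copper mostly within 2-fold. In the list of iron, copper and zinc transport and siderophore genes, 0 of 34 compared members were higher and 14 lower (41.2%, against 27.9% of all genes), and the median log2 ratio was -0.85 as deposited and -0.34 after rescaling, when 4 were higher and 12 lower. Among its zinc and copper transporters, the zinc transporter hits zrg17 (gene01350) and YKE4 (gene03562) were lower and the rest stayed within 2-fold. MirB (gene04089), which carries siderophores back into the cell in Aspergillus, had 400.3 TPM in the wild type, 443 TPM in the mutant at day 14, 3.58 TPM for 19 °C and 8.82 TPM for 25 °C. Both day 18 libraries were low and both day 14 libraries high. The hits to siderochrome transporter 1 were likewise low in both day 18 libraries in 2 neighbouring genes: gene05563 had 191, 147, 1.82 and 5.62 TPM in the wild type, day 14, 19 °C and 25 °C libraries, and gene05564 had 16.1, 65.7, 0 and 2.73 TPM. Another such hit, gene04222, separated the day 18 libraries, with 114 TPM at day 14, 10.5 TPM for 19 °C and 105 TPM for 25 °C. Siderochrome transporter 2 (gene09375) had 121 TPM at day 14 and 8.63 TPM at 19 °C, 14.01-fold lower. The siderophore transporter mirC (gene01178) was lower by less, with 221 and 64.03 TPM.

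The neighbouring genes gene04085 to gene04090, 6 in number, held siderophore assembly and transport hits and were the only run of 4 or more neighbours that was still wholly lower at a 4-fold threshold. Together they had 1097 TPM in the wild type, 775 TPM in the mutant at day 14, 29.2 TPM for 19 °C and 29.4 TPM for 25 °C. The acetyltransferase SidF (gene04085), which in Aspergillus adds an acyl group to hydroxyornithine, had 37.9 TPM at day 14 and 2.86 TPM at 19 °C. SidH (gene04086), the hydratase that helps make this acyl group, had 46.9 and 5.39 TPM. The nonribosomal peptide synthase sidD (gene04087), which joins the units into fusarinine C, had 22.01 and 1.29 TPM. ABC transporter 1 (gene04088) had 89.4 TPM at day 14 and 2.15 TPM at 19 °C, a 41.6-fold difference. SidJ (gene04090), the esterase that opens the siderophore after uptake, had 136 and 13.9 TPM.

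Hits for the first step, ornithine hydroxylation, moved the same way. Gene02221 and gene08450 have a name cut to "L-ornithine" in the table and the symbol pvdA, which is an ornithine hydroxylase in Pseudomonas. Gene02221 had 80.5, 231, 5.73 and 15.8 TPM in the wild type, day 14, 19 °C and 25 °C libraries, and gene08450 had 474, 304, 45.3 and 28.8 TPM. Next to the former, the acyl-CoA ligase sidI (gene02222) had 128 TPM at day 14 and 17.1 TPM at 19 °C. Next to the latter, the multidrug transporter MDR2 hit (gene08451) had 18.9 and 0.35 TPM, and nonribosomal peptide synthetase 2 (gene08452) had 8.65 and 1.83 TPM. A group put together after values were seen, all 12 genes with sid names or the cut ornithine name, had 0 higher and 9 lower members and a median of -2.78, or -2.23 after rescaling. Its counts describe genes picked for their names in view of these values and support nothing further.

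The reductive route was lower too. The permease ftrA (gene06901) had 304, 577, 72.5 and 37.97 TPM in the wild type, day 14, 19 °C and 25 °C libraries. Its partner oxidase fetC (gene06902), next to it in number, had 192, 509, 28.1 and 27.9 TPM. Both were highest in the mutant at day 14. HapX (gene10569) had 98.8 TPM at day 14 and 12.9 TPM at 19 °C and was lower on both scales. The GATA factor SRE1 (gene08139), the named counterpart of SreA, had 0.33, 15.1, 26.5 and 60.8 TPM. Between day 14 and 19 °C SRE1 stayed within 2-fold as deposited and was called higher after rescaling. Oxidoreductase OXR1 (gene01963) was 64.95-fold lower, with 559.9 TPM at day 14 and 8.62 TPM at 19 °C. It was named for its low ratio, and its name gives no role in iron uptake. Ferric reductases were split. Gene02938 and gene03497 had 30.01 and 155 TPM at day 14 and 6.22 and 61.1 TPM at 19 °C, while gene03596 had 22.9 and 35.6 TPM. The highest ratio in the list belonged to the copper transport protein CTR2 (gene07792), at 0.66 with 113 and 179 TPM. The iron content of the medium is not given in the labels.

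**Figure D2:**
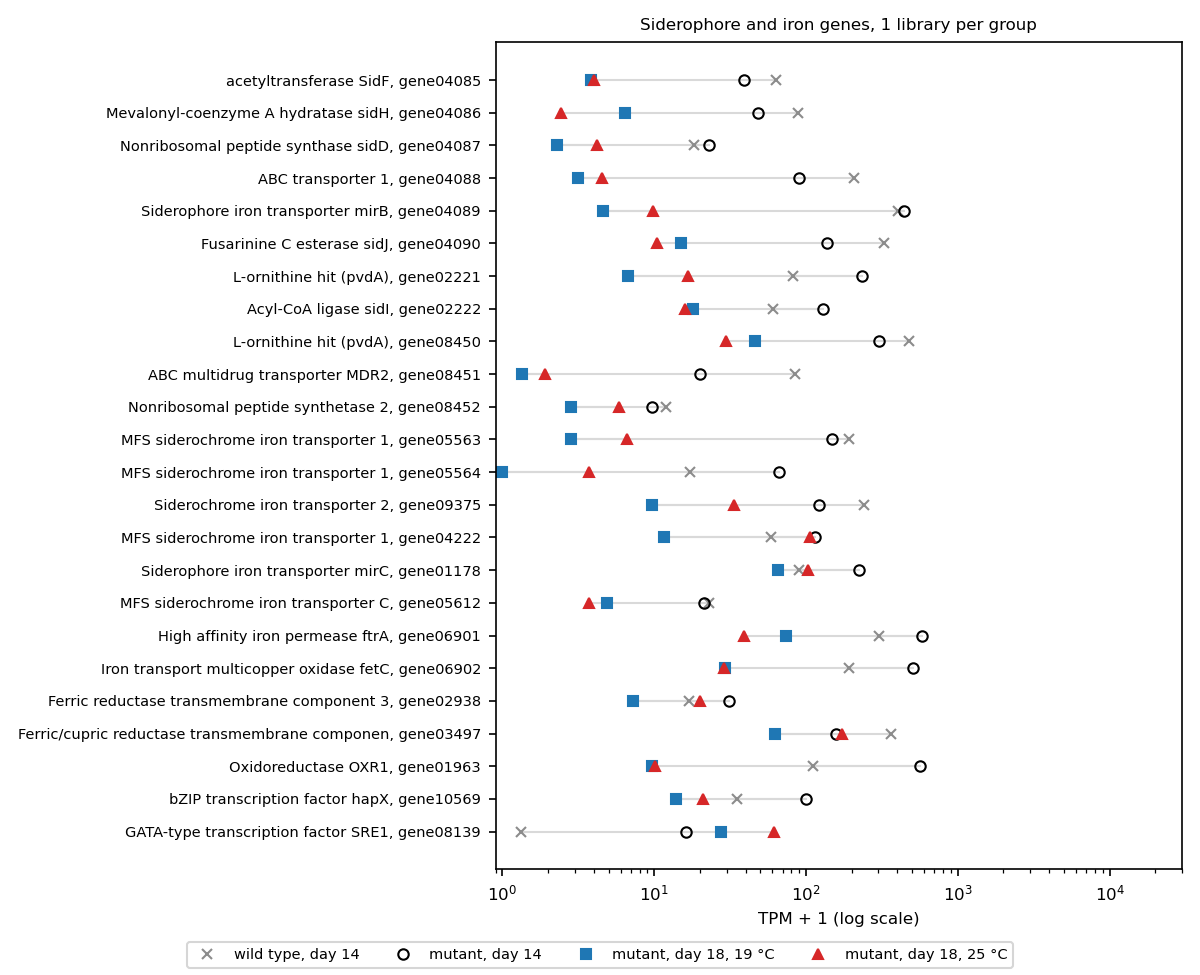
TPM + 1 on a log axis for 24 genes in the 4 libraries, 1 symbol for each library. They are siderophore and iron genes with neighbours, and OXR1, whose name gives no role in iron uptake. The squares (19 °C) and triangles (25 °C) lie left of the circles (mutant, day 14) for mirB, ftrA, fetC and the neighbours gene04085 to gene04090, while SRE1 is highest at 25 °C.

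In the enfumafungin stretch the share of members called lower was near that of all genes. Of the 13 models with efu names between gene04127 and gene04142, 1 was higher and 4 were lower (30.8%, against 27.9% of all genes), and the median log2 ratio was -0.78 as deposited and -0.21 after rescaling (1 higher and 1 lower). The lower ones were efuA, efuI, efuE and efuJ, of which efuJ alone was still called lower after rescaling, when the other 3 lay within 2-fold. The share of all TPM held by the 13 models was 0.054% in the wild type, 3.01% in the mutant at day 14, 1.48% for 19 °C and 0.87% for 25 °C. The median lay 0.23 below that of all genes, while the share of the library, which the few highest members set, fell by more than 2-fold.

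Enfumafungin synthase efuA (gene04134), which folds the triterpene core and adds its sugar, had 31.6 TPM in the wild type, 2829 TPM at day 14, 1049 TPM for 19 °C and 887 TPM for 25 °C. It was 2.697-fold lower at 19 °C than at day 14, and both day 18 libraries lay between the wild type and the day 14 mutant. The highest member, the hydroxylase or desaturase efuI (gene04131), had 205, 15829, 7402 and 2069.9 TPM in the same order. The P450 enzymes efuH (gene04132) and efuG (gene04133) had 981 and 9193 TPM at day 14 and 566 and 5361 TPM at 19 °C. Both stayed within 2-fold. The reductase efuL (gene04127) had 159 and 93.2 TPM.

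EfuJ (gene04130), a probable self-resistance protein, had 71.6 TPM in the wild type, 921 TPM at day 14, 90.1 TPM for 19 °C and 1787 TPM for 25 °C. The 19 °C value was near that of the wild type and 10.2-fold below day 14, while the 25 °C value was the highest of the 4. One transporter model named efuK (gene04128) was the only member called higher, with 20.7, 85.6, 191 and 31.7 TPM, and the other (gene04129) was low throughout, with 8.13 and 10.2 TPM. The transporter efuF (gene04137) had 4.19 and 1.68 TPM, and the dehydrogenase efuE (gene04138) 11.2 and 4.44 TPM. The transcription factor efuD (gene04140) had 58.3 TPM at day 14 and 39.4 TPM at 19 °C, within 2-fold. The acetyltransferase efuC (gene04141) had 46 and 30.7 TPM, and the P450 enzyme efuB (gene04142) 1.69 and 2.18 TPM, the latter low in both.

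The models without an efu name inside the stretch were within 2-fold or too low to compare. Gene04135, which has no name in the table, had 362, 4733, 6166 and 3316 TPM and was highest at 19 °C. Gene04136, a hypothetical protein, had 184 and 202 TPM, and the dimethylsulfonioproprionate lyase hit (gene04139) was under 1 TPM in all 4 libraries. Hits to efu proteins outside the stretch numbered 7 compared genes, of which 1 was higher and 0 lower. The higher one was a second efuI hit, gene06638, with 429, 56.6, 704 and 505 TPM, the lowest value being that of the mutant at day 14. An efuB hit, gene05027, stayed within 2-fold with 466 and 350.4 TPM.

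A separate terpene stretch was highest at 19 °C. Gene06239 to gene06244 formed the longest run of neighbouring genes all called higher, 6 in number, and the names on both sides of it extend the stretch to 12 models, gene06238 to gene06249. Several names are those of Aspergillus genes for a pimaradiene, a diterpene, among them the synthase pbcA and the regulator pbcR. The borders were drawn after the values and names were seen. Within it, 9 of 12 genes were higher and 0 lower, and its summed level was 537 TPM in the wild type, 443 TPM at day 14, 1185 TPM for 19 °C and 264 TPM for 25 °C. At 25 °C, 0 of the 12 were higher than at day 14 and 4 lower.

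Its early pathway members are copies of mevalonate genes. The hydroxymethylglutaryl-CoA synthase hit (gene06244) had 3.58, 2.19, 42.2 and 1.59 TPM in the wild type, day 14, 19 °C and 25 °C libraries, 19.3-fold above day 14. The reductase hit (gene06242), of the step that usually limits the pathway, had 11.01 and 26.4 TPM, and the geranylgeranyl pyrophosphate synthase hit (gene06243), which makes the diterpene precursor, 11.9 and 60.1 TPM. Pimaradiene synthase pbcA (gene06248), the cyclase, had 9.93 TPM at day 14, 28.1 TPM for 19 °C and 4.85 TPM for 25 °C. All were highest at 19 °C among the 4 libraries.

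The other members called higher include transfer and oxidation enzymes. Acetyltransferase aurG (gene06241) had 1.04, 0.55, 48.3 and 1.05 TPM, and the acetyl-coenzyme A synthetase (gene06239) 9.31, 10.6, 61.8 and 4.06 TPM. The hypothetical protein gene06240 had 5.71 TPM at day 14 and 139 TPM at 19 °C. Oxidoreductases AN1597 (gene06246) and AN1596 (gene06247) had 60 and 74.2 TPM at day 14 and 237 and 182 TPM at 19 °C. The 3 members within 2-fold were the ABC transporter atrA hit (gene06238), the glutathione S-transferase AN1595 (gene06245) and the transcription factor pbcR (gene06249), which had 50.4 TPM at day 14 and 32.3 TPM at 19 °C. A P450 hit (gene02028) of another gene of that pathway lies elsewhere in the gene numbers and was lower, with 3057 and 660.0 TPM.

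**Figure D3:**
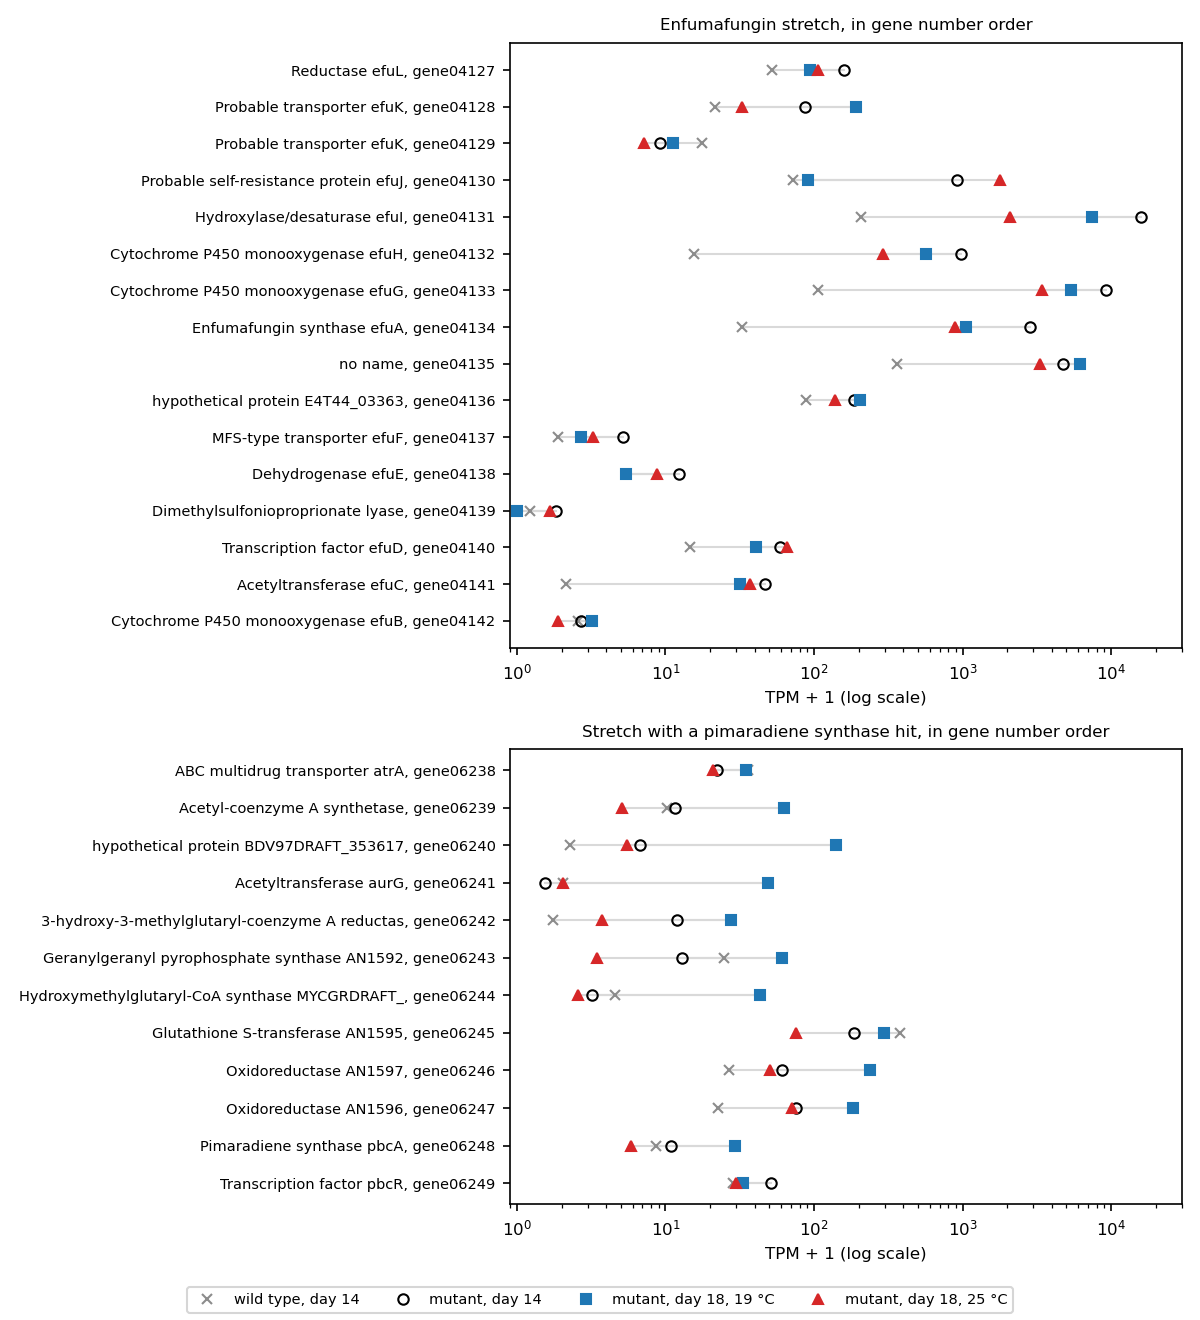
TPM + 1 on a log axis for the 16 models of the enfumafungin stretch (top) and 12 models of the stretch with a pimaradiene synthase hit (bottom), 1 symbol for each library. In the top panel the circles (mutant, day 14) lie right of the squares (19 °C) for efuA, efuI and efuJ; in the bottom panel the squares lie farthest right for 9 of 12 models that were called higher.

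Mevalonate genes outside that stretch were lower or within 2-fold. Of 12 mevalonate genes, 3 were higher, all 3 of them in the diterpene-type stretch, and 2 were lower, with a median of -0.41, or 0.15 after rescaling (4 higher and 0 lower). The lower ones were the other hydroxymethylglutaryl-CoA synthase (gene01440), with 543 and 241 TPM, and farnesyl pyrophosphate synthase (gene10535), with 172 and 79.7 TPM. The reductase outside the stretch (gene03104) had 67.3 TPM at day 14, 39.7 TPM for 19 °C and 155 TPM for 25 °C. Phosphomevalonate kinase (gene06988) had 339.9 and 350.2 TPM and mevalonate kinase (gene03478) 120.1 and 112 TPM. The isomerase that supplies both precursors (gene06871) had 72.05 and 110.1 TPM.

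Ergosterol genes, which turn squalene into the membrane sterol of fungi, had 1 higher and 2 lower of 17, with a median of -0.20 as deposited and 0.33 after rescaling (2 higher and 0 lower), a change of sign. The higher one was a low copy of erg6 (gene04991), with 1.5 and 4.53 TPM. Squalene synthase erg9 (gene09579), which makes the precursor of sterols and other triterpenes, was lower, with 86.1, 79.1, 28.4 and 55.2 TPM. The next step, squalene epoxidase erg1 (gene02835), had 141 and 142 TPM. Lanosterol synthase (gene10489) had 22 and 12.8 TPM, and the demethylase cyp51B (gene02287), the target of azole drugs, 115 and 92.7 TPM. The 3-keto-steroid reductase erg27 (gene09087) was lower, with 45.01 and 21.2 TPM. Methylsterol monooxygenase erg25B (gene08535) had 398 and 630.3 TPM and the sterol methyltransferase erg6 (gene08313) 289.6 and 313 TPM, both within 2-fold.

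Another run of higher genes, gene10289 to gene10293, carried a tyrosinase hit. Its 5 members summed to 12.8 TPM in the wild type, 21.6 TPM at day 14, 887 TPM for 19 °C and 0.75 TPM for 25 °C. Most of the level came from gene10291, which has no name in the table and had 11.3, 12.4, 813 and 0 TPM in these libraries. The tyrosinase ustQ hit (gene10292), a copper enzyme that oxidises phenols, had 3.94 and 23.7 TPM, and the cyclochlorotine protein R hit (gene10293), with a mycotoxin biosynthesis domain in the table, 3.04 and 8.59 TPM. At 25 °C, 4 of the 5 were listed at 0. The remaining run of higher genes, gene07200 to gene07203, was higher at 25 °C as well except for gene07203, which was within 2-fold there. Its transporter pyvG (gene07201) had 0.55, 1.78, 46.05 and 96.7 TPM.

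Ribosome assembly genes had the highest median of the 49 lists. Of 79 genes that process ribosomal RNA and assemble its particles, 21 were higher (26.6%, against 7.97% of all genes) and 5 lower, and the median log2 ratio was 0.57 as deposited and 1.11 after rescaling (48 higher and 1 lower). Nucleolar GTP-binding protein 2 (gene09526), which helps release the large subunit from the nucleolus, had 13.3, 13.2, 70.5 and 57.96 TPM in the wild type, day 14, 19 °C and 25 °C libraries. The rRNA-processing protein FCF1 (gene04266) had 25.9 and 118 TPM. A pair of core proteins of the small nucleolar particles stayed within 2-fold: fibrillarin (gene09987) had 166 and 170.3 TPM, and nucleolar protein 56 (gene00037) 116 and 119 TPM. Ribosome assembly proteins 3 (gene01386) and 1 (gene10358) were lower, the former with 83.8 and 36.3 TPM. The list's median at 25 °C was 0.63, with 24 higher and 4 lower.

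Cytosolic ribosomal proteins, the parts of the ribosome itself, had a median of 0.20 as deposited and 0.77 after rescaling (19 higher and 0 lower), with 5 of 70 higher and 1 lower. They held 10.96% of the day 14 library and 11.98% of the 19 °C library. Protein L30 (gene00234) had 95.8 and 316 TPM, and S7 (gene03601) 367 and 175 TPM. Their mitochondrial counterparts had a median of -0.23, or 0.33 after rescaling (6 higher and 0 lower), with 1 of 49 higher and 2 lower; at 25 °C the median was -0.66, with 12 lower.

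Transfer RNA ligases, which load amino acids for translation, had the lowest median. Of 35 genes, 1 was higher and 20 lower, with a median of -1.08 as deposited and -0.53 after rescaling, when 3 were higher and 8 lower. The glutamate ligase (gene10562) had 30, 98.6, 19.4 and 40.1 TPM in the wild type, day 14, 19 °C and 25 °C libraries. An alanine ligase (gene00220) was the only one higher, with 96.7 TPM at day 14 and 334 TPM at 19 °C. Translation factors had 0 higher and 8 lower of 33 (24.2%, against 27.9% of all genes), and after rescaling 2 higher and 2 lower. Initiation factor 5B (gene06148) had 54.95 and 12.7 TPM, and the highest ratio was 0.99 (gene08777, 1168 and 2314 TPM). Ribosome biogenesis and transfer RNA ligases had the highest and the lowest median of the 49 lists on both scales.

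**Figure D4:**
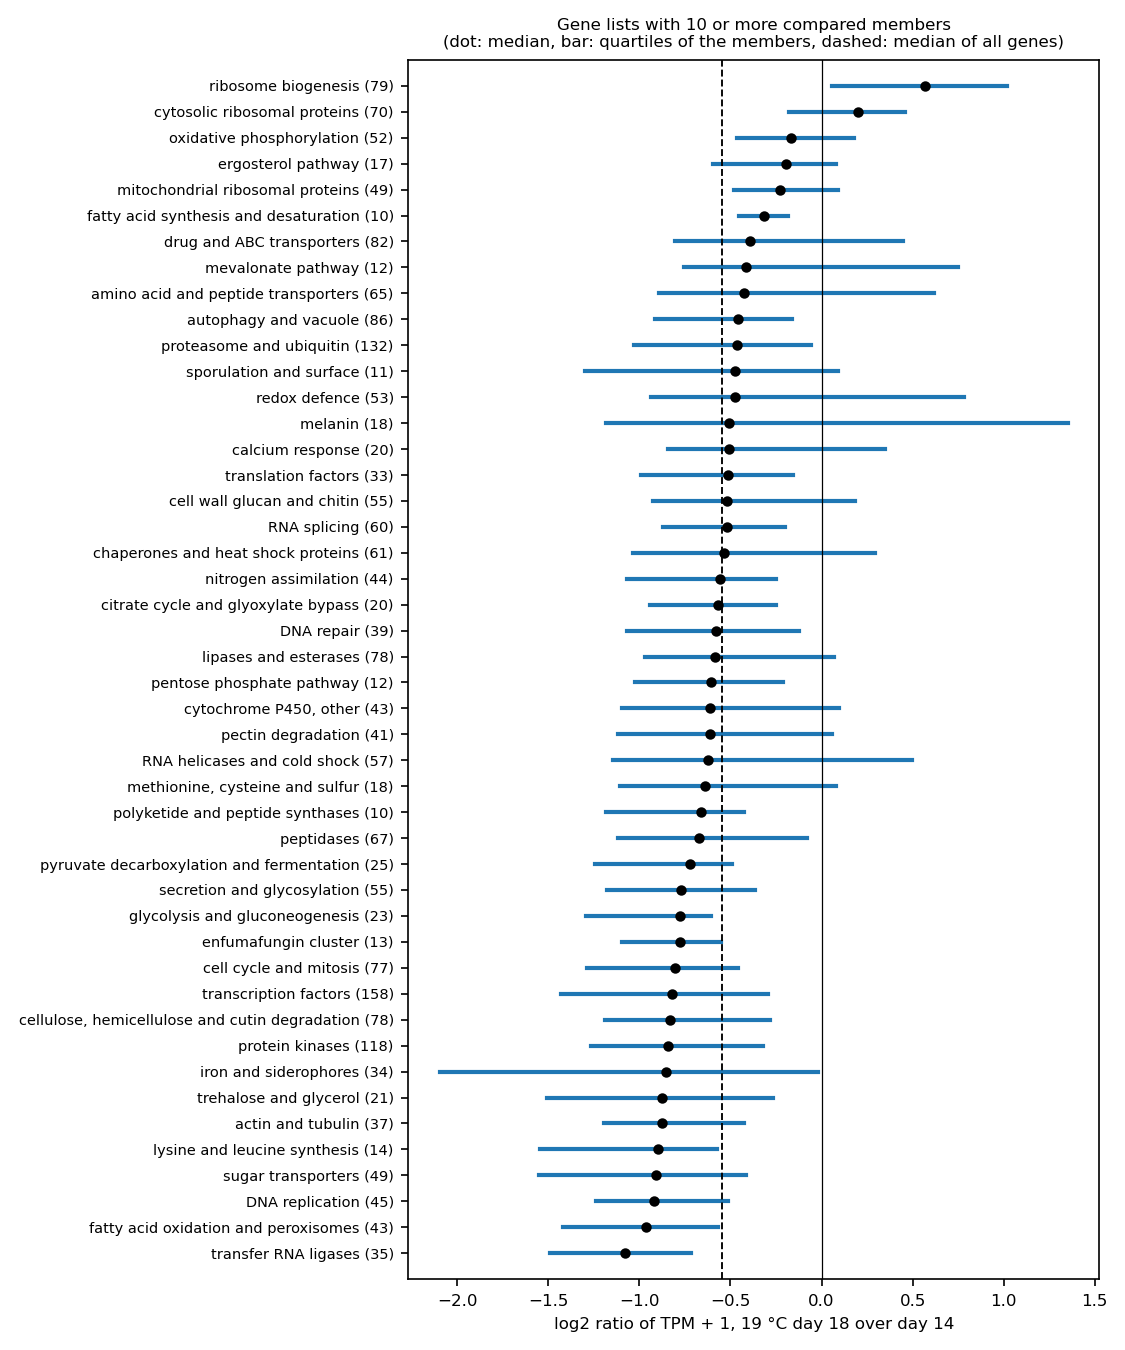
Median log2 ratio of TPM + 1 (dot) and the quartiles of the members (bar) for the gene lists with 10 or more compared members, whose number stands in brackets, 19 °C day 18 over day 14. The dashed line is the median of all genes, -0.55; ribosome biogenesis lies at 0.57 and transfer RNA ligases at -1.08.

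Many genes for polyols and dihydroxyacetone were lower. Mannitol is a storage and protective sugar alcohol of fungi, and dihydroxyacetone is a link between polyols and glycolysis. In a group drawn by name after values were seen, 0 of 24 genes were higher and 16 lower, with a median of -1.45, or -0.95 after rescaling. The mannitol dehydrogenase at the highest level (gene07123) had 1688, 2391, 576 and 617 TPM in the wild type, day 14, 19 °C and 25 °C libraries. Mannitol-1-phosphate dehydrogenase (gene03294), an enzyme of mannitol synthesis, had 273 and 92.9 TPM.

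The dihydroxyacetone kinase hit gene04737 had 4.99, 319, 34.9 and 88.9 TPM, and its neighbour gene04738 had 24.7, 366, 85.2 and 169 TPM. Both were highest in the mutant at day 14. Another kinase (gene07392) and polyol transporter 5 (gene07387) belong to the longest run of lower neighbours, gene07387 to gene07395, and the transporter had 463 TPM at day 14 and 80.2 TPM at 19 °C. Dihydroxyacetone synthase (gene06655), an enzyme of methanol assimilation in yeasts, was lower, with 17.2 and 0.56 TPM.

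Sugar transporters had 1 higher and 21 lower members of 49, a median of -0.91, and -0.52 after rescaling (2 higher and 15 lower). The lower ones included hits to STL1, a glycerol importer in yeast. Gene08949 had 3.04, 206, 6.54 and 95.7 TPM, gene05359 173, 96.9, 6.58 and 109.6 TPM, and gene08920, the highest of these 3, 1301, 1199, 196 and 138 TPM. The first pair had far higher values at 25 °C than at 19 °C, and the last was low in both day 18 libraries. The aquaglycerol porin AQY3 (gene02800), a channel for water and glycerol, went the other way with 2.05, 5.54, 196 and 1.37 TPM, and the glycerol kinase next to it (gene02801) had 0.84, 102, 102 and 20.9 TPM, equal at day 14 and 19 °C. The trehalose and glycerol list, which does not hold AQY3, had 1 higher and 10 lower of 21, and after rescaling 2 higher and 6 lower. Its member called higher as deposited was another channel hit, aquaporin-3 (gene00856), with 0.3, 1.09, 10.3 and 0.22 TPM.

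Most central carbon genes were lower or within 2-fold. In glycolysis all 23 compared genes had a negative log2 ratio and 9 were lower at 2-fold, with a median of -0.78 as deposited and -0.22 after rescaling (0 higher and 3 lower). The fructose-bisphosphate aldolase (gene01672) had 102, 907, 169 and 137 TPM, and a triosephosphate isomerase hit (gene02219) 222 and 44.98 TPM. In the citrate cycle 4 of 20 were lower (20%, against 27.9% of all genes) and 0 higher, and after rescaling 1 was lower and 1 higher. Its median of -0.57 was near the -0.55 of all genes. Malate dehydrogenase (gene05181) had 792 and 349 TPM. The pentose phosphate list, which supplies NADPH, had 3 lower (25%) and 1 higher of 12, and after rescaling 2 lower and 1 higher. Its 6-phosphogluconate dehydrogenase (gene07922) had 45.6 and 6.65 TPM, while one transaldolase (gene05701) had 109 and 263 TPM.

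Pyruvate decarboxylase was higher, while fat breakdown genes were lower or within 2-fold. Pyruvate decarboxylase (gene05481), which opens the way to ethanol, had 6989, 1451, 4008 and 2961 TPM and was higher at 19 °C. Of its list of 25, 2 were higher and 10 lower, and after rescaling 6 were higher and 4 lower. Fatty acid oxidation and peroxisome genes had 0 higher and 19 lower of 43, with a median of -0.96 and of -0.41 after rescaling (0 higher and 8 lower). Carnitine acetyltransferase (gene02264) had 32.6 TPM at day 14, 5.83 TPM for 19 °C and 37.2 TPM for 25 °C. Fatty acid synthesis and desaturation had 0 higher and 0 lower of 10. The acyl-CoA desaturase (gene03493), which keeps membranes fluid in the cold, had 6589, 1929, 2912 and 2993 TPM, so the day 18 libraries were alike. Oleate hydroxylase FAH12 (gene00800) had 15.3, 3.34, 96.9 and 116 TPM and was higher in both.

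Respiration genes were mostly within 2-fold. Of 52 oxidative phosphorylation genes, 2 were higher and 3 lower, with a median of -0.17 as deposited and 0.40 after rescaling (11 higher and 0 lower). At 25 °C the same list had 1 higher and 12 lower, with a median of -0.59. Cytochrome c (gene06004), the mobile electron carrier, had 453, 1228, 4347 and 2623 TPM in the wild type, day 14, 19 °C and 25 °C libraries. Chosen after values were seen, the alternative oxidase (gene00570), which bypasses the later complexes, had 60.4, 63.02, 386 and 356 TPM, and respiratory supercomplex factor 2 (gene07958) 272, 62.3, 772 and 539 TPM. All 3 were higher in both day 18 libraries. The prolyl dihydroxylase ofd1 hit (gene04865), whose fission yeast relative acts in oxygen sensing, had 949, 256, 1505 and 323 TPM.

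Flavohemoprotein (gene03962) had the largest log2 ratio of any gene with a name, 5.44. This enzyme turns nitric oxide into nitrate, and it had 204 TPM in the wild type, 133 TPM at day 14, 5850.4 TPM for 19 °C and 1055 TPM for 25 °C. The 19 °C value exceeded each of the others. Nitrite reductase (gene06170) had 0.32, 1.42, 28.1 and 1.18 TPM, and its neighbour nitrate reductase (gene06169) 0.56, 5.8, 14.7 and 5.83 TPM. Both reductases were highest at 19 °C, at low levels. Of the 44 nitrogen assimilation genes compared, 3 were higher and 12 lower, with acetamidase (gene05613) at 453 and 73.2 TPM. After rescaling 5 were higher and 4 lower.

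Purine breakdown, which frees nitrogen from nucleic acids, had members in both directions. These genes were grouped after values were seen. Uricase (gene01581) had 252, 146, 1098 and 1289.7 TPM, adenine deaminase (gene06737) 5.8, 11.6, 92.8 and 165 TPM, and xanthine dehydrogenase (gene06048) 3.28, 14.3, 31.1 and 87.1 TPM. One guanine deaminase (gene01352) had 63.6 and 206 TPM. Both day 18 libraries were above both day 14 libraries for these 4. Another guanine deaminase hit (gene05615) was lower, with 3.11 and 0.16 TPM. Of later steps, allantoicase (gene00935) had 122.8 and 84.01 TPM, and urease (gene06661) 14.8 and 6.53 TPM. In all, 4 of 14 were higher and 3 lower.

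**Figure D5:**
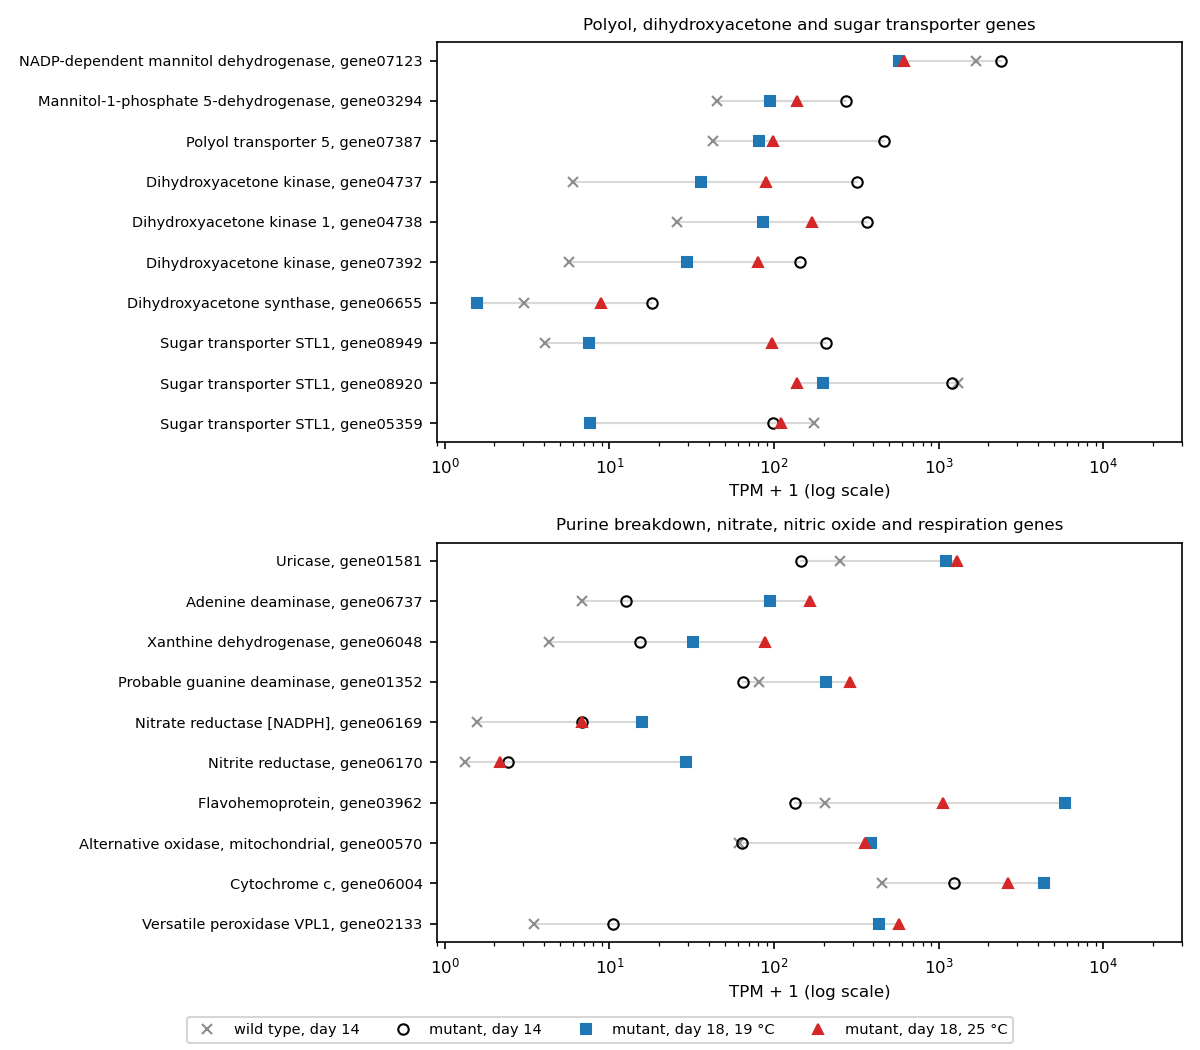
TPM + 1 on a log axis in the 4 libraries for polyol, dihydroxyacetone and STL1 transporter genes (top) and for purine, nitrate, nitric oxide and respiration genes (bottom), 1 symbol for each library. In the top panel the squares (19 °C) lie left of the circles (mutant, day 14) for all 10 genes, and in the bottom panel they lie right of them for all 10; these genes were chosen after values were seen.

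Peroxide and stress enzymes were split. In the redox list 7 of 53 were higher and 10 lower, with a median of -0.48 as deposited and 0.04 after rescaling (18 higher and 5 lower). Versatile peroxidase VPL1 (gene02133), a secreted heme enzyme in wood-rotting fungi, had 2.5, 9.48, 429.8 and 574 TPM. A catalase-related peroxidase (gene06597) had 13.4, 11.3, 127 and 46.5 TPM. Glutathione reductase (gene04609) had 105.6 and 253 TPM and the thioredoxin AMT13 hit (gene06997) 799 and 1746 TPM, both higher. Catalase B (gene05877), which breaks down hydrogen peroxide, had 25.96, 47.9, 4.53 and 557 TPM, lowest at 19 °C and highest at 25 °C. The surface copper superoxide dismutase (gene00563) had 19.5, 105, 11.4 and 147 TPM in the same order. The mitochondrial manganese dismutase (gene10272) had 87.03, 4608, 2413 and 516 TPM, within 2-fold between day 14 and 19 °C.

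Chaperones had 5 higher and 18 lower members of 61, and a median of -0.53, or 0.03 after rescaling (8 higher and 8 lower). Small heat shock proteins, which hold unfolded proteins, were among the higher ones. One 30 kDa protein (gene01826) had 3724, 139.9, 2523 and 274 TPM and another (gene08146) 594, 1179.5, 5916 and 6192 TPM. The first was high at 19 °C and in the wild type, the second in both day 18 libraries. Another (gene04245) had 1892 and 2515 TPM, within 2-fold. Prefoldin subunit 6 (gene01514), which hands new proteins to the folding chamber, had 95.2 and 12.8 TPM, the Hsp90 partner Cdc37 (gene09182) 91.7 and 16.5 TPM, and the Hsp12 hit (gene05573) 154 TPM at day 14, 34.03 TPM for 19 °C and 418 TPM for 25 °C.

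Among cell division genes the lower calls at 19 °C depended largely on the scale. In the DNA replication list 0 of 45 were higher and 18 lower (40%, against 27.9% of all genes), with a median of -0.92 as deposited and -0.39 after rescaling, when 1 was higher and 3 lower. For the cell cycle and mitosis list the counts were 1 higher and 30 lower of 77, with medians of -0.80 and -0.31, and after rescaling 2 higher and 11 lower. Against the same day 14 library, the 25 °C medians of these lists were 0.24 and 0.12. The GINS subunit PSF2 (gene06802), part of the helicase at replication forks, had 12.5, 31.2, 7.54 and 9.16 TPM. DNA primase (gene00818) had the highest ratio, with 13.3 and 26.5 TPM. The spindle pole protein alp14 (gene09109) had 11.7 TPM at day 14, 2.17 TPM for 19 °C and 10.3 TPM for 25 °C, and cyclin-dependent kinase 20 (gene08893) 49.5, 134 and 249 TPM.

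The shares of lower genes among histone, DNA repair and splicing genes were near or below the 27.9% of all genes, and that of actin and tubulin genes was above it as deposited. Histones had 0 higher and 2 lower of 8, the lower ones being H2A (gene05346), with 1071 and 489.6 TPM, and its neighbour H2B (gene05347), with 2251 and 1062 TPM, and after rescaling 1 was higher and 0 lower. Actin and tubulin genes had 0 higher and 16 lower of 37, with a median of -0.88, and 3 lower after rescaling. DNA repair had 1 higher and 11 lower of 39, and RNA splicing 2 and 11 of 60, with medians of -0.58 and -0.52, near that of all genes. After rescaling 4 repair genes were higher and 2 lower, and 4 splicing genes higher and 1 lower.

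Kinases and transcription factors had 37.3% and 43.7% lower genes as deposited, against 27.9% of all genes. After rescaling, against 11.4% of all genes, the lower share of kinases was near that of all genes, and that of transcription factors stayed above it. Protein kinases had 2 higher and 44 lower of 118, with a median of -0.84 as deposited and -0.32 after rescaling, when 8 were higher and 16 lower, and a median of 0.23 at 25 °C. The stress kinase YAK1 (gene01442) had 44.3 and 5.23 TPM and a mitogen-activated kinase (gene00751) 98.98 and 19.01 TPM. A histidine kinase hit, RcsC (gene02393), was higher with 14.9, 16.2, 77.2 and 149 TPM. Transcription factors had 3 higher and 69 lower of 158, and medians of -0.82 and -0.35, with 9 higher and 36 lower after rescaling. The calcium-responsive factor CRZ1 (gene07846) had 0.72, 3.15, 13.8 and 447 TPM, with a far higher value at 25 °C than at 19 °C. A vacuolar calcium transporter (gene07236) had 93.9, 218 and 1156 TPM in the 3 mutant libraries.

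Protein turnover and RNA handling lay near the middle of the lists. Proteasome and ubiquitin genes, which remove proteins, had 4 higher and 35 lower of 132, with a median of -0.46. After rescaling 15 were higher and 9 lower. Ubiquitin fusion degradation protein 1 (gene08655) had 46.4, 128 and 264 TPM in the 3 mutant libraries. Autophagy and vacuole genes had 1 higher and 18 lower of 86, and after rescaling 6 higher and 6 lower. The one called higher as deposited was a subunit c hit of the vacuolar proton pump (gene09147), with 165, 131, 383 and 142 TPM. The lowest ratio was that of the sorting protein VPS25 hit (gene01324), with 16.03 and 0.28 TPM. RNA helicase and cold shock genes, which unwind RNA, had 5 higher and 18 lower of 57, with a median of -0.62, or -0.06 after rescaling (15 higher and 7 lower). Their lowest was the dhh1 hit (gene00206), a helicase of messenger RNA decay in yeast, with 27.4 and 3.75 TPM, and their highest an RNA-binding protein hit (gene02683), with 84.4, 86.95, 492 and 424 TPM. Calcium response genes had 3 higher and 3 lower of 20. The alcohol and one-carbon list, which also holds the flavohemoprotein, had 2 higher and 3 lower of 8, and after rescaling 3 higher and 0 lower.

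Genes for plant polymer enzymes were called in both directions. In the cellulose, hemicellulose and cutin list 0 of 78 were higher and 30 lower, with medians of -0.83 as deposited and -0.34 after rescaling, when 3 were higher and 15 lower. The list was matched by name and does not hold every such enzyme: the endo-beta-1,4-glucanase D hit (gene03022), outside it, was higher, with 0.4 and 13.8 TPM. Gene03938, whose name is cut to "Extracellular endo-alpha" so that its substrate is not known here, was also higher, with 0.15, 2.68, 68.01 and 133 TPM. Cutinase 4 (gene05570), which cuts the plant cuticle, had 2.96, 221, 9.9 and 42.1 TPM. Among pectin genes 4 of 41 were higher and 13 lower, and after rescaling 5 were higher and 8 lower. Pectin lyase A (gene05692) had 484, 122, 4.13 and 533 TPM, and endopolygalacturonase A (gene10082) 822, 26.04, 150.2 and 0.18 TPM. The day 18 libraries stood at opposite sides of day 14 for both, in opposite orders.

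Peptidases had 4 higher and 24 lower of 67, and after rescaling 9 higher and 12 lower. Carboxypeptidase F hits moved in either direction, with gene08071 at 15.2 and 0.56 TPM and gene04587 at 1.51 and 17.1 TPM, and the aminopeptidase BapA hit (gene01713) had 27.6 and 158 TPM. Cell wall glucan and chitin genes had 2 higher and 12 lower of 55, and after rescaling 9 higher and 5 lower. Chitin synthase 8 (gene06462) had 37.05, 66.7 and 148 TPM in the 3 mutant libraries. Lipases and esterases had 5 higher and 16 lower of 78, and after rescaling 10 higher and 7 lower. Secretion and glycosylation genes had 1 higher and 20 lower of 55, and after rescaling 2 higher and 6 lower. The member called higher as deposited was the SEC65 subunit of the signal recognition particle (gene07062), with 1332, 92.4, 416 and 131 TPM.

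Transporters for drugs and amino acids moved in both directions. Drug and ABC transporters had 6 higher and 16 lower of 82 (19.5% lower, against 27.9% of all genes), and medians of -0.39 as deposited and 0.10 after rescaling, a change of sign. The counts turned with it, to 21 higher and 5 lower. The efflux pump himE (gene05680) had 1.23, 23.5, 191 and 78.5 TPM. Amino acid and peptide transporters had 5 higher and 15 lower of 65 (23.1% lower), and after rescaling 18 higher and 9 lower, with medians of -0.43 and 0.06. The proline permease (gene09566) had 52.6, 4.73 and 82.9 TPM in the 3 mutant libraries, and ammonium transporter 1 (gene07015) 36.3, 3.77 and 196 TPM, and 19 °C was the lowest of these 3 for both.

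Amino acid synthesis was lower in part. Lysine and leucine genes had 0 higher and 6 lower of 14, with a median of -0.90, or -0.33 after rescaling (0 higher and 4 lower). Dihydroxy-acid dehydratase (gene03740) had 60.99 and 16.8 TPM, and aminoadipate reductase (gene01353) 56.3 and 14.1 TPM. Sulfur amino acid genes had 2 higher and 5 lower of 18, and after rescaling 4 higher and 1 lower. Homoserine acetyltransferase (gene06728) had 569.8, 209, 1136 and 699 TPM and homocysteine synthase (gene07510) 177 and 56.8 TPM. Argininosuccinate synthase (gene10842), chosen after values were seen, had 26.9, 707, 134 and 233 TPM. Thiamine thiazole synthase (gene00267), an enzyme of vitamin B1 synthesis, had 1171, 4161, 951 and 848 TPM. Of 10 thiamine and vitamin B6 genes grouped after values were seen, 0 were higher and 4 lower.

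Markers of pigment and spores were checked against the label of mycelium. Melanin genes had 5 higher and 5 lower of 18, and after rescaling 5 higher and 3 lower. Their summed share was 0.22% of the library at day 14 and 0.21% at 19 °C. The laccase hits gene09143 and gene01900, multicopper oxidases of phenols, were higher, with 28.2 and 82.5 TPM at day 14 and 163 and 274 TPM at 19 °C, while scytalone dehydratase (gene06769), of melanin synthesis proper, had 1291 and 902 TPM. The scytalone dehydratase-like Arp1 hit (gene06085) was lower on both scales, with 29.7 and 8.49 TPM. Sporulation and surface genes had 0 higher and 4 lower of 11, and after rescaling 1 higher and 2 lower. Their lowest ratio was that of the spore wall maturation protein DIT1 hit (gene05643), lower on both scales. It had 0.35, 155, 37.9 and 80.8 TPM. The conidiation protein 10 hit (gene06873) had 9.91, 688, 924 and 635 TPM, the spore regulator wetA (gene02208) was under 1 TPM in all 4 libraries, and abaA (gene06725), which acts in conidiophores of Aspergillus, had 1.05, 3.75, 4.55 and 1.89 TPM. The summed share of the sporulation list was 0.12% at day 14 and 0.12% at 19 °C, and 0.022% in the wild type. No marker list for mycelium itself was used.

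Other hits of secondary metabolism included some of the largest ratios. The short-chain dehydrogenase dmxR12 (gene09461) had 25.9, 9.38, 427 and 22.4 TPM, and drtF (gene08979) 4.45, 42.02, 1209 and 185 TPM. An NmrA-like protein (gene07737), whose name gives no role in secondary metabolism, had 2.7, 3.87, 86.6 and 2.77 TPM. All 3 were highest at 19 °C. The dehydrogenase notP' (gene09795) was lower, with 91.1, 499, 20.8 and 155 TPM. P450 enzymes outside the efu family had 2 higher and 13 lower of 43, and after rescaling 7 higher and 7 lower. Among them himC (gene09700) had 51.3, 119, 414 and 9.5 TPM and oblE (gene02026) 554 and 109 TPM. Polyketide and peptide synthases had 0 higher and 4 lower of 10, and the polyketide synthase PKS1 (gene01398) had 82.6, 35.2 and 118 TPM in the 3 mutant libraries.

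Several genes with no informative name took up large parts of the 19 °C library. Gene05849 had 7241 TPM in the wild type, 428 TPM at day 14, 11177 TPM for 19 °C and 93.2 TPM for 25 °C, and gene05386 had 6617, 1811, 11803 and 7255 TPM. Both were among the 5 highest genes at 19 °C, with the 40S ribosomal protein S25 (gene06776, 17600.3 and 15024 TPM), gene08671 (19435 and 14024 TPM) and gene00679 (4154 and 9459 TPM). At day 14 the 5 highest were gene08671, S25, efuI, the 60S protein L29 (gene01841, 10448 and 9129 TPM) and efuG. Of the 20 highest genes of each library, 13 were shared, and each library's own 20 held 15.9% of the total at day 14 and 16.1% at 19 °C. Picked after values were seen, gene06454 had 816 and 6089 TPM, gene06173 784 and 6003 TPM, and gene01824 124 and 4734 TPM.

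Genes present on one side only were few. At 10 TPM or more at 19 °C and under 1 TPM at day 14 there were 15 genes (0.164%), most of them without an informative name. The largest ratio of the whole table, 6.41, belonged to one of them, gene05911, which had 83.7 TPM at 19 °C and was listed at 0 in the other 3 libraries. That ratio depends on the pseudocount, and no fold is given. AurG of the diterpene-type stretch is another of the 15, and the endo-beta-1,4-glucanase D hit (gene03022) a further one. The other way round there were 23 genes (0.252%), among them the siderochrome transporter gene05564, MDR2, the N-acetylglucosamine-6-O-sulfatase hit gene05562 with 17.03 and 0 TPM, and the pH response protein palC (gene05008) with 18.2 and 0.2 TPM. Runs of 4 or more neighbouring genes called the same way numbered 3 for higher and 48 for lower genes, in a table where 27.9% of genes were lower. Among the lower runs of 6, gene05610 to gene05615 held another siderochrome transporter (gene05612, 20.4 and 3.91 TPM) beside acetamidase, and gene06652 to gene06657 the dihydroxyacetone synthase with a second notP' hit (gene06656, 53.4 and 3.1 TPM). After rescaling, 5 lower and 14 higher runs were counted, and the siderophore stretch gene04085 to gene04090, the tyrosinase stretch gene10289 to gene10293 and a diterpene-type run lengthened to 11 genes, gene06238 to gene06248, were among them.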

How the data were processed

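Per the labels, RNA of mycelium was sequenced from libraries made with a SMARTER mRNA-Seq kit, 1 library for each of the 4 groups. The deposited table holds TPM for 10951 genes, made by the authors, with database hits as names. Aligner, counter, genome build, annotation and read depth: not given in the sources used here. TPM keep no depth, so no counting error is printed and no test was run.

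Ratios are differences of log2(TPM + 1) over genes for which either library had 1 TPM or more, with 2-fold as the threshold, computed in Python 3.11.15 with pandas 2.3.3, numpy 2.4.6 and matplotlib 3.10.9. The scripts were tested on simulated data. Rescaling divided the 19 °C values by the median ratio of genes at 1 TPM or more in both libraries. Gene lists, 49 in all, were matched by name, 321 unfitting matches were removed by hand, and 2 genes with cut names were added by symbol. Runs are 4 or more consecutive gene numbers called the same way, and their place on chromosomes is not known here.

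Genes were named by rule: the 12 largest and 12 smallest ratios among informatively named genes at 10 TPM or more, the extremes of each list, every model of the enfumafungin stretch, mevalonate and ergosterol members at 10 TPM or more, the longest 3 runs each way, and the 5 highest genes of each library. Not all genes named by the rule are printed. The members, lists and 5 name-based groups were chosen with earlier results of these data known. Alternatives were other pseudocounts, filters, thresholds and scalings. No gene named by the rule shares identical values in all libraries with another gene, and the other genes printed here were not checked for this.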

Additional observations from a re-analysis of the deposited data

Results flagged for a closer look

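Among genes named by the rule, 15 passed 2-fold in opposite directions at 19 °C and at 25 °C against day 14. Both comparisons share the day 14 library, there is 1 library in each group, and the difference was not tested.

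Genes higher at 19 °C and lower at 25 °C included the aquaglycerol porin AQY3 (gene02800), with a log2 ratio at 19 °C of 4.91, the unnamed gene05849, with 4.70, and the transporter efuK (gene04128) of the enfumafungin stretch, with 1.15. In the stretch with diterpene hits the 19 °C log2 ratios were 2.44 for the acetyl-coenzyme A synthetase (gene06239), 1.19 for the reductase (gene06242) and 2.24 for geranylgeranyl pyrophosphate synthase (gene06243). In the stretch with a tyrosinase hit they were 3.93 for gene10289, 5.92 for gene10291, 2.32 for ustQ (gene10292) and 1.25 for gene10293. The quinate permease (gene00508) had 1.35, himC (gene09700) 1.79 and endopolygalacturonase A (gene10082) 2.48. In the other direction, pectin lyase A (gene05692) had a log2 ratio of -4.58 at 19 °C and catalase B (gene05877) one of -3.14, and both were higher at 25 °C.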

How the results depend on the processing

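With rescaling by the median ratio the higher genes numbered 1466 and the lower 1041, and the median log2 ratio was -0.042. A pseudocount of 5 gave 1484 lower genes and a median of -0.38, and a 4-fold threshold gave 217 higher and 330 lower genes. By construction, the larger pseudocount shrinks the ratios of low genes. The median of 19 of 49 lists changed sign under rescaling and that of 1 list under a filter of 10 TPM. Of 204 named genes, 43 changed their side of the threshold under rescaling, 74 at 4-fold, 17 with a pseudocount of 5 and 2 with a pseudocount of 0.1. These alternatives for genes on one side and for runs were chosen after seeing the data: a minimum of 20 TPM left 7 genes at 19 °C and 4 at day 14, rescaling gave 14 higher and 5 lower runs, and a 4-fold threshold 0 higher and 1 lower run. The balance of higher and lower genes, and that of higher and lower runs, thus turned round under rescaling. The median log2 ratio was below 0 under each alternative run. Rescaling puts it near 0 by construction, and the threshold does not enter it, so this sign is no check on the shift. No paired analysis was possible because each group has 1 library. Without replicates or depth, the error of each ratio is unknown, and it is largest in relative terms for genes of few TPM. Day and temperature cannot be told apart.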
